A study of Homo sapiens with 8 samples.

Results

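AK4, ANKRD37, ANKZF1, FAM13A, FAM162A, PPFIA4, SAMD4A, CPEB4 and RAB20 are 9 genes that respond to low oxygen but are written about far less often than the classical hypoxia genes. They were chosen by their measured hypoxia and normoxia values in these libraries, so that their direction of change is a description and was not tested. They are 9 of 14529 named genes, and the deposited table lists 17 transcripts for them among 24812 in all. RNA was sequenced from SQ20B, an established line derived from a human head and neck squamous cell carcinoma, with 4 replicates kept in normoxia and 4 replicates kept at 0.5% O2 for 16 h (hypoxia). The libraries were stranded and made from poly(A)-selected RNA. The groups were taken from the source names of the samples, since the labels repeat the low-oxygen treatment text for normoxia. A single cell line was used.

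Every value is an FPKM, a fragment count divided by transcript length and by sequencing depth, that the authors computed once per condition from its 4 replicates. No spread between replicates can be computed from 1 value per condition, and no difference could be tested. Changes are log2 ratios of hypoxia over normoxia after adding 0.1 FPKM to both, and a gene's level is the sum over its listed transcripts. The depth of each library is unknown from these values. The FPKM values of all transcripts summed to 536005 in normoxia and 458431 in hypoxia. Epithelial markers were present, with KRT5, a basal keratin, at 398 FPKM in normoxia and 442 FPKM in hypoxia, and TP63, a squamous transcription factor, at 42.8 FPKM and 44.6 FPKM. The adhesion proteins CDH1 (61.1 and 82.6 FPKM) and EPCAM (317 and 233 FPKM) differed in opposite directions. VIM, a mesenchymal marker, was at 0.576 FPKM and 1.04 FPKM. The epithelial markers KRT14 and EGFR were not analysed here, nor were fibroblast, leukocyte and endothelial markers.

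When oxygen is scarce, the prolyl hydroxylases that mark the alpha subunits of the hypoxia-inducible factors (HIFs) for degradation lose activity, the alpha subunits accumulate, and with ARNT they bind a short DNA core, ACGTG or GCGTG, near target genes. The best-known targets drive glycolysis, angiogenesis and pH control. The 9 genes described here act elsewhere: AK4 and FAM162A in mitochondria, ANKZF1, CPEB4 and SAMD4A on messenger RNA and its translation, FAM13A, PPFIA4 and RAB20 in signalling, adhesion and membrane traffic, while the role of ANKRD37 is little known.

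All 9 genes, and all 17 of their transcripts, were higher in hypoxia. At least 2-fold differences were seen for 6 of 9 genes, against 3.21% of the 12107 genes with a mean of at least 0.5 FPKM. At least 1.5-fold differences were seen for 8 of 9, against 9.95% of all genes. The rule used this contrast, so these shares describe the choice of genes. Of the 17 transcripts, 14 had a mean of at least 0.5 FPKM and 10 of these were at least 2-fold higher, against 3.7% of the 18190 transcripts at that level. Genes at least 2-fold lower made up 2.62% of all genes and included none of the 9. The median change was 1.65 on the log2 scale, beside a median of -0.07 over all genes. The name "hypoxia-induced" described the direction of all 9 genes, but CPEB4, RAB20 and AK4 were under 2-fold.

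**Figure D1:**
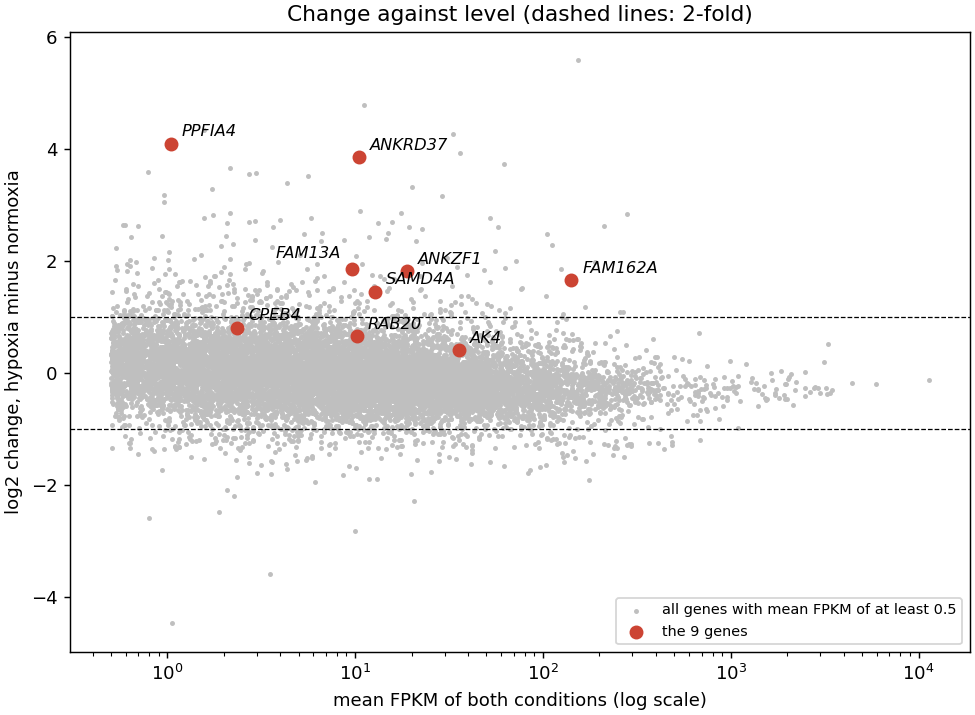
Each point is a gene, with its mean FPKM over both conditions on the horizontal axis (log scale) and its log2 change, hypoxia minus normoxia, on the vertical axis; grey points are the 12107 genes with a mean of at least 0.5 FPKM and red points the 9 genes. PPFIA4 and ANKRD37 lie near the top of the cloud, FAM162A combines a high level with a change of 1.65, and CPEB4, RAB20 and AK4 lie below the upper dashed line that marks 2-fold.

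The level of the 9 genes spanned a wide range. FAM162A was the most abundant of them in both conditions, and PPFIA4 was close to 0 in normoxia. By size of change, PPFIA4 ranked 5 and ANKRD37 ranked 7 among the 12107 genes. FAM13A ranked 90, ANKZF1 ranked 96, FAM162A ranked 118 and SAMD4A ranked 167. CPEB4 (rank 655), RAB20 (rank 1014) and AK4 (rank 1981) stood much lower in that order.

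**Figure D2:**
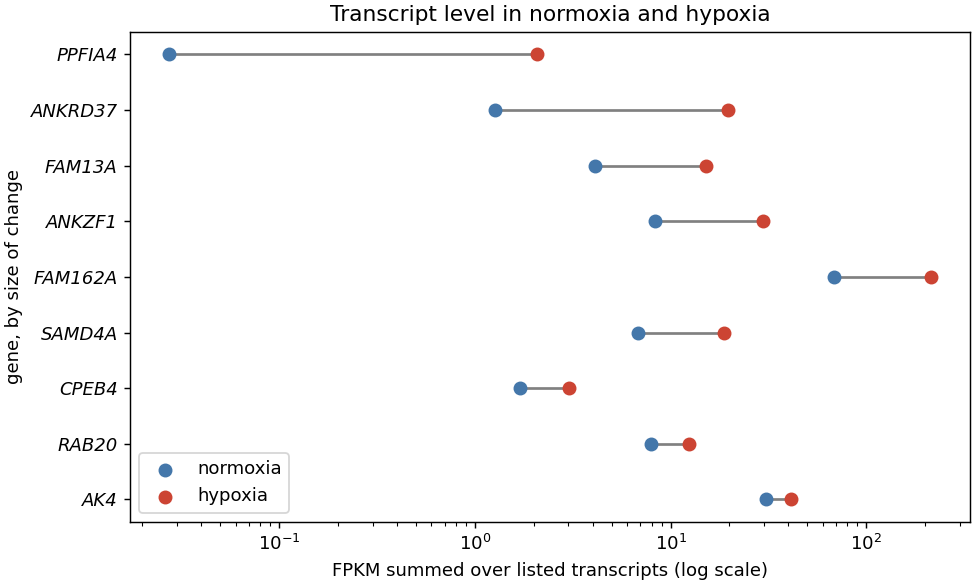
FPKM summed over the listed transcripts of each gene (horizontal axis, log scale), with normoxia in blue and hypoxia in red, 1 pooled value per condition and genes ordered by size of change. Every red point lies to the right of its blue point, from PPFIA4 at 0.0272 and 2.07 FPKM to AK4 at 30.9 and 41.0 FPKM.

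AK4, a nucleoside phosphate kinase of the mitochondrial matrix (chr1:65613232-65697828 in hg19, plus strand), was at 30.9 FPKM in normoxia and 41.0 FPKM in hypoxia. The change was 0.41 on the log2 scale, or 1.33-fold. This was the smallest change of the 9, at the second highest level. Transcript NM_013410 held nearly all of it, with 30.6 FPKM in normoxia and 40.6 FPKM in hypoxia, and carried 98.4% of the summed difference. Transcript NM_203464 was at 0.261 FPKM and 0.424 FPKM. AK4 has near-identical pseudogene copies in the genome, and how shared reads were divided is not given in the sources used here.

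Among the other adenylate kinases, which interconvert adenine nucleotides in several compartments, the values did not move together. AK7 changed by 1.34 on the log2 scale, with 1.85 FPKM in normoxia and 4.83 FPKM in hypoxia, and AK9 changed by 0.47. AK3, the matrix enzyme most closely related to AK4, changed by -0.24, AK1 by -0.33 and AK6 by -0.50. Of these, AK7 was the only gene at least 2-fold higher and 0 were at least 2-fold lower. AK4 lay just below AK9 and above AK3, AK1 and AK6.

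FAM162A, a mitochondrial protein linked to cell death in hypoxia (chr3:122103023-122128961, plus strand), was at 68.4 FPKM in normoxia and 215 FPKM in hypoxia. The difference was 3.15-fold, or 1.65 on the log2 scale. Its mean level ranked 573 of 12107 genes, the highest of the 9. The table lists 1 transcript for it, and its only relative, FAM162B, was not analysed here. Mitochondrial carriers of adenine nucleotides and phosphate, with the anion channels of the outer membrane, creatine kinases and PPIF, were examined around AK4 and FAM162A. None of 11 expressed genes was at least 2-fold higher and 2 were at least 2-fold lower, PPIF, the mitochondrial cyclophilin, at -1.05 and SLC25A25, an ATP-magnesium/phosphate carrier, at -1.14. The median of this list was -0.23, and with equal FPKM sums neither gene passed 2-fold (-0.82 and -0.92).

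The promoter window of FAM162A is shown because it held the most matches to the HIF core among the windows that also held ACGTG. It was taken from RefSeq (GRCh38.p14, chr3:122383932-122384231, plus strand) and runs from 250 bases before the annotated start to 50 bases after it. Capitals mark ACGTG or GCGTG on either strand, so that CACGT and CACGC are matches on the opposite strand and CACGTG is 1 site read on both strands.
FAM162A: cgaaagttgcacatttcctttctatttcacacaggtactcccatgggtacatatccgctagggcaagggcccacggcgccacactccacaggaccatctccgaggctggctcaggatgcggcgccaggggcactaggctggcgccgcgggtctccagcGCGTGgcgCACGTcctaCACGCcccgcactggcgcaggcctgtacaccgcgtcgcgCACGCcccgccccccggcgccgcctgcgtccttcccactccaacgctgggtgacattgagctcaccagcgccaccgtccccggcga
ACGTG began 84 bases before the start (-84) and GCGTG at -92, -75 and -36.

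ANKZF1 releases unfinished peptides from their tRNA on stalled ribosomes, a step of ribosome-associated quality control. The gene (chr2:220094479-220110151 as the table spans it, plus strand) went from 8.34 FPKM in normoxia to 29.7 FPKM in hypoxia, which was 3.53-fold higher (log2 change 1.82). The span in the table is shared with GLB1L, a gene on the opposite strand. Transcript NM_001042410 was at 7.81 FPKM and 28.2 FPKM and carried 95.7% of the difference. Transcript NM_018089 went from 0.528 FPKM to 1.45 FPKM, a log2 change of 1.31 that became 0.68 when 1 FPKM was added in place of 0.1. The study reported more retention of an ANKZF1 intron in hypoxia. Which part RNA with that intron had in these values was not tested.

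Other genes of the quality control pathway were mostly lower in hypoxia than in normoxia. Of 15 expressed genes on that list, ANKZF1 was the only gene at least 2-fold higher, and 0 were at least 2-fold lower. Of the other 14, 1 was above 0, ASCC2, part of the complex that splits collided ribosomes, at 0.17, and with equal FPKM sums 3 of the 14 were above 0. Their median as deposited was -0.39, beside -0.07 for all genes, and the lowest was ABCE1, the ATPase that recycles ribosomes, at -0.95.

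CPEB4 binds cytoplasmic polyadenylation elements and controls the poly(A) tail and translation of its targets. It lies at chr5:173315331-173387313 on the plus strand, and the table lists 1 transcript. Its level was 1.70 FPKM in normoxia and 3.04 FPKM in hypoxia, 1.75-fold higher (log2 change 0.81). The related CPEB3 changed by 0.36 and CPEB2 by 0.08, so that 0 of 3 expressed family members reached 2-fold and CPEB4 was the highest. Scaling both columns to equal FPKM sums brought CPEB4 to 1.02, just past 2-fold. Among 11 expressed factors of cytoplasmic polyadenylation, 0 were at least 2-fold higher and 1 was lower, AURKA, a mitotic kinase known to phosphorylate CPEB1, at -1.11. Their median was -0.20. With equal FPKM sums AURKA was at -0.88 and none passed 2-fold.

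SAMD4A, the Smaug protein that represses translation of mRNAs carrying a hairpin recognition element and recruits deadenylases, was at 6.82 FPKM in normoxia and 18.8 FPKM in hypoxia (chr14:55034330-55260033, plus strand). This was 2.73-fold higher, with a log2 change of 1.45. Of its 3 transcripts, NM_015589 went from 3.70 to 12.2 FPKM (log2 change 1.69) and carried 70.9% of the difference. Transcript NM_001161576 went from 3.03 to 6.18 FPKM, a change of 1.00, and carried 26.3%. Both main transcripts were thus higher, while the share of NM_015589 in the gene went from 54.2% to 64.8% and that of NM_001161576 from 44.4% to 32.9%. The third, NM_001161577, stayed under 0.5 FPKM, at 0.0915 FPKM and 0.431 FPKM.

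The paralogue SAMD4B changed by 0.22. Together with the CCR4-NOT and PAN2-PAN3 deadenylases and the TOB and BTG adaptors, 2 of 19 expressed genes were at least 2-fold higher and 0 lower, with a median of 0.22. Beside SAMD4A the other gene past 2-fold was BTG1, an antiproliferative adaptor of the deadenylase, at 1.25. The lowest was CNOT7, a catalytic subunit, at -0.62. With equal FPKM sums 4 genes of the list passed 2-fold.

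FAM13A, a protein with a RhoGAP domain whose locus is associated with lung function, lies on the minus strand. Its span in the table, chr4:89630940-89978346, is shared with the antisense RNA FAM13A-AS1. The 5 listed transcripts of FAM13A summed to 4.09 FPKM in normoxia and 15.1 FPKM in hypoxia, 3.62-fold higher (log2 change 1.86). The transcript that dominated in normoxia took almost no part in this. NM_014883 was at 3.72 FPKM and 4.35 FPKM (log2 change 0.22) and carried 5.67% of the difference. Its share of the gene went from 91.0% in normoxia to 28.8% in hypoxia.

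The other 4 FAM13A transcripts together went from 0.370 FPKM to 10.7 FPKM (log2 change 4.53) and carried 94.3% of the difference. NM_001265578 went from 0.0867 to 4.29 FPKM and carried the largest part, 38.2%. NM_001265579 went from 0.260 to 3.05 FPKM (25.4% of the difference). NM_001015045 went from 8.51e-05 to 2.61 FPKM (23.7%), and NM_001265580 from 0.0234 to 0.792 FPKM (7.0%). Each of the 4 was near 0 in normoxia, and the size of their log2 changes depended on the amount added before taking logs: NM_001265578 changed by 4.55 with 0.1 FPKM added and by 2.28 with 1 FPKM added, NM_001265579 by 3.13 and 1.68, and NM_001015045 by 4.76 and 1.85. With the single transcript of highest mean level standing for the gene in place of the sum, FAM13A changed by 0.22. The transcripts overlap, so these values rest on how the authors' software divided shared reads among them.

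**Figure D3:**
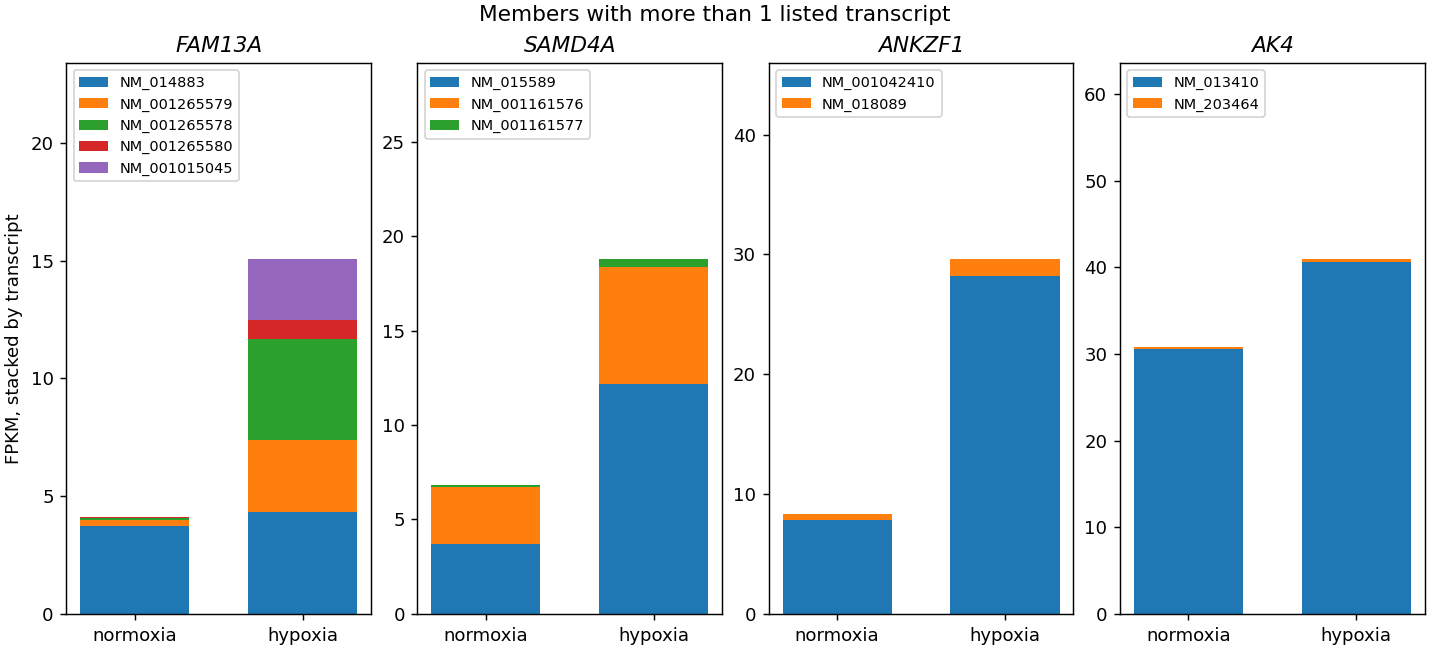
FPKM of each listed transcript, stacked, in normoxia and hypoxia for the 4 genes with more than 1 listed transcript; each panel has its own vertical axis starting at 0 and the height of a bar is the gene's summed FPKM. In FAM13A the lowest segment (NM_014883) keeps nearly the same height, 3.72 and 4.35 FPKM, while the segments above it appear in hypoxia, whereas in ANKZF1 and AK4 1 transcript makes up almost the whole bar in both conditions.

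RefSeq gives FAM13A 2 start sites 233953 bases apart, and both promoter windows are shown because they differ in the HIF core (GRCh38.p14, minus strand, printed 5′ to 3′ on that strand). The upstream window is chr4:89057136-89057435 and the downstream window chr4:88823183-88823482. Listed transcripts were not assigned to either start. Capitals mark the motif as above.
FAM13A upstream start: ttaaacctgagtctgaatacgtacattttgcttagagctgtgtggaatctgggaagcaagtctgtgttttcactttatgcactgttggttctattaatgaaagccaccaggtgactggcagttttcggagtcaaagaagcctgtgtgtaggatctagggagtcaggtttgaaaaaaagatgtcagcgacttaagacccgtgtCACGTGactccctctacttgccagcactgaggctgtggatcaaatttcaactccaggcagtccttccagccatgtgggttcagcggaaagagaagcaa
FAM13A downstream start: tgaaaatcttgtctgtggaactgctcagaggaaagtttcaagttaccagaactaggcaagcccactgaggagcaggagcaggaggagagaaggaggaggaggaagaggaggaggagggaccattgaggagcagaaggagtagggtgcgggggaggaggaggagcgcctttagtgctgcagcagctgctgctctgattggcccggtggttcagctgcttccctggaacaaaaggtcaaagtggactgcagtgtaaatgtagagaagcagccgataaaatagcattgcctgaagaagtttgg
The upstream window held 1 ACGTG site at -48, and the downstream window held neither ACGTG nor GCGTG. FAM13B, the related gene, changed by 0.10.

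PPFIA4 encodes liprin-alpha-4, a scaffold of the family that organizes synaptic active zones and adhesion sites. It was nearly silent in normoxia, at 0.0272 FPKM, and reached 2.07 FPKM in hypoxia. The log2 change was 4.09 with 0.1 FPKM added to both values, 1.58 with 1 FPKM and 5.81 with 0.01 FPKM, so that its size depended on the amount added while its direction was the same. The read count behind the normoxia value is unknown. The level reached in hypoxia remained low, below the median mean level of 9.23 FPKM over all expressed genes. Its transcript, NM_015053, was paired with the gene by position (chr1:203020311-203047864 in hg19, plus strand). It starts 24692 bases downstream of the 5′ end of the gene in the GENCODE annotation of GRCh37.

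Both starts of PPFIA4 are shown because the sequence around them differed in the HIF core. The RefSeq window (GRCh38.p14, chr1:203026241-203026540, plus strand) surrounds the annotated 5′ end, and the second window was read from GRCh37 around the start of the measured transcript (chr1:203020061-203020360, plus strand). Capitals mark ACGTG or GCGTG on either strand.
PPFIA4 annotated 5′ end: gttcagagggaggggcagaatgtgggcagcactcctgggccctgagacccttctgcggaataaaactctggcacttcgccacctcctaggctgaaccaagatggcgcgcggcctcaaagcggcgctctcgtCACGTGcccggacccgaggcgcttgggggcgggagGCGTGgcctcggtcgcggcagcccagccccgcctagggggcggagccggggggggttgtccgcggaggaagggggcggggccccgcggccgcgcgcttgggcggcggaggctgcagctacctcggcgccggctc
PPFIA4 start of NM_015053: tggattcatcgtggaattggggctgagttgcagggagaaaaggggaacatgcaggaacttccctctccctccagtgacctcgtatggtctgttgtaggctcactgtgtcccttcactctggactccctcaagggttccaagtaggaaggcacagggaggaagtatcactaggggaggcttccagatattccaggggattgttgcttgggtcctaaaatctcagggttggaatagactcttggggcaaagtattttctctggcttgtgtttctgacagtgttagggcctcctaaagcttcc
The annotated 5′ end held ACGTG at -119 and GCGTG at -84, and the start of the measured transcript held neither. A match describes the letters only, and no binding was measured.

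The other expressed liprins differed far less between the conditions. PPFIBP1 changed by 0.28, PPFIA1 by -0.17 and PPFIBP2 by -0.19, and the last 2 turned to just above 0 under scaling to equal FPKM sums. PPFIA4 was thus the only 1 of 4 at least 2-fold higher. Of 9 expressed liprin-alpha partners, which include receptor phosphatases and cortical scaffolds, 0 passed 2-fold in either direction and the median was 0.31. The highest was PTPRF, the LAR receptor phosphatase, at 0.80 (1.02 with equal FPKM sums), and the lowest PHLDB1, a scaffold of the cell cortex, at -0.06, a sign that median centring turned to 0.02.

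RAB20, a small GTPase of endosomes and phagosomes, lies on the minus strand at chr13:111175413-111214071 and has 1 listed transcript. It was at 7.90 FPKM in normoxia and 12.5 FPKM in hypoxia, 1.57-fold higher (log2 change 0.65). It was the highest of 18 expressed endosomal Rab genes, of which 0 passed 2-fold in either direction. RAB4B at 0.62 and RAB5B at 0.56 lay close below it, and RAB4B was low in both conditions (0.658 and 1.07 FPKM). The median of the 18 was 0.01 and the lowest was RAB21, an early endosome Rab, at -0.48.

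ANKRD37, a small protein built mainly of ankyrin repeats, had the largest change among the 9 apart from PPFIA4. It went from 1.27 FPKM to 19.7 FPKM, 14.5-fold higher. Its log2 change of 3.85 became 3.19 with 1 FPKM added. The table gives it 1 transcript and a span, chr4:186317840-186347139 on the plus strand, that it shares with UFSP2 on the opposite strand. Among 28 expressed genes named for ankyrin repeats, 2 were at least 2-fold higher, ANKRD37 and ANKRD9 at 1.61, and 2 at least 2-fold lower, ANKRD2 at -1.09 and ANKRD1 at -1.39, both titin-associated stress proteins of muscle. The median of the list was -0.03, and turned to 0.16 with equal FPKM sums, under which ANKRD2 was at -0.87.

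The ANKRD37 promoter window is shown for its 2 closely spaced ACGTG sites (RefSeq, GRCh38.p14, chr4:185396591-185396890, plus strand).
ANKRD37: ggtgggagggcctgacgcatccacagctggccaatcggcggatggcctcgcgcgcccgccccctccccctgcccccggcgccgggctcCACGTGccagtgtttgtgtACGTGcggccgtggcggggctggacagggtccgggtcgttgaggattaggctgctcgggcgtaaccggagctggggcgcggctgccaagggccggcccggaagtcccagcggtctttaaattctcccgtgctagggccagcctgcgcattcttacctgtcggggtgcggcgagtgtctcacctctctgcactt
The sites began at -162 and -143, the first of them the palindrome CACGTG.

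**Figure D4:**
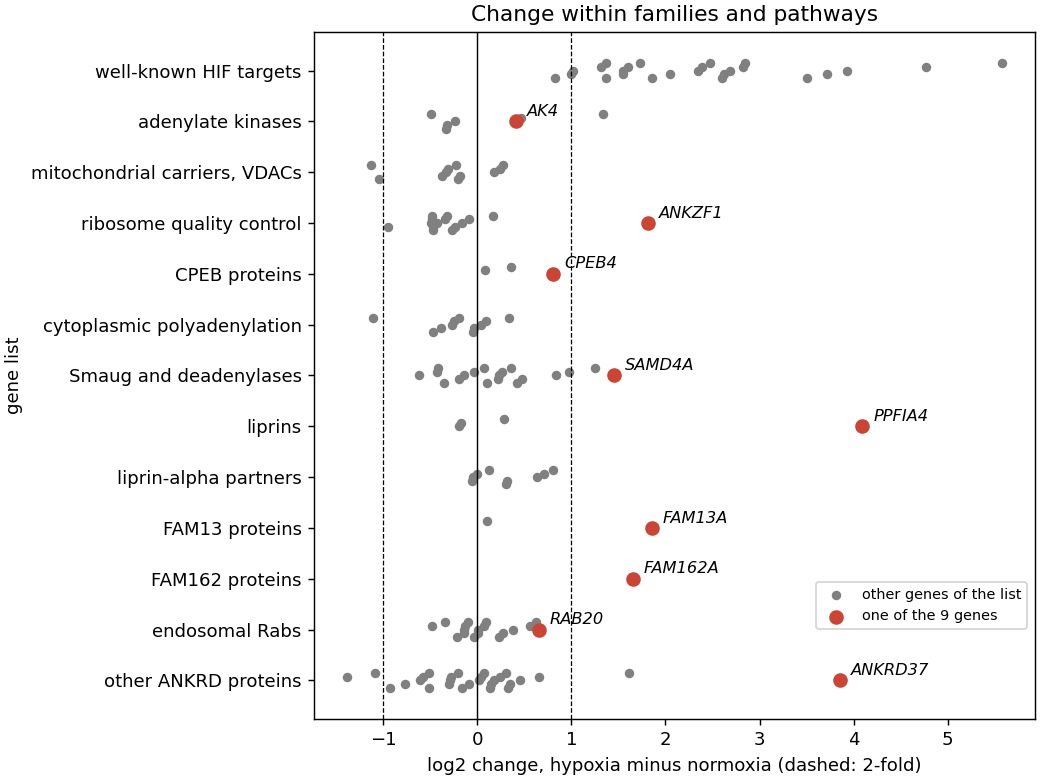
Log2 change, hypoxia minus normoxia, of every expressed gene (mean of at least 0.5 FPKM) in each list, with the 9 genes in red, other genes of the list in grey and dashed lines at 2-fold. ANKZF1, CPEB4, SAMD4A, PPFIA4, FAM13A, RAB20 and ANKRD37 are the highest points of their lists, whereas AK4 lies below AK7 and AK9.

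For scale, the 9 genes were set beside 28 well-known HIF targets, none of them among the 9, of which 25 were analysed here. All 25 were higher in hypoxia and 24 were at least 2-fold higher, with a median of 2.35. NDRG1, a stress-response protein, was the highest at 5.58, KDM3A, a histone demethylase, stood at the median, and ALDOA, a glycolytic aldolase, was the lowest at 0.83. PPFIA4 had 2 of the 25 above it and ANKRD37 had 3. FAM13A and ANKZF1 had 15 above them, FAM162A 16 and SAMD4A 19. CPEB4, RAB20 and AK4 lay below all 25.

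Position on the chromosome had no part in choosing the genes, so the nearest expressed neighbour on each side, and any overlapping gene, was examined. Of 21 such neighbours, 4 were at least 2-fold higher in hypoxia and 0 at least 2-fold lower, beside 3.21% and 2.62% of all genes. The 4 became 1 when 1 FPKM was added and 7 with equal FPKM sums. As deposited, 10 were above 0 and 11 below, with a median of -0.00. Since the members were chosen with their rise known, a comparison with their own neighbours was largely fixed by that choice. The log2 change of the neighbour lay below that of the member in 18 of 21 pairs. The exceptions were JAK1, a cytokine receptor kinase next to AK4, at 0.50, COL4A2, a basement membrane collagen next to RAB20, at 1.11, and FAM13A-AS1.

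FAM13A had 2 of the 4 neighbours past 2-fold. FAM13A-AS1, the antisense RNA that overlaps it, went from 0.215 to 1.14 FPKM, a log2 change of 1.98. HERC3, a ubiquitin ligase gene, went from 1.51 to 4.38 FPKM, a change of 1.48. Its span ends at 89629693, 1247 bases from the span that FAM13A shares with FAM13A-AS1. In GENCODE the lower end of FAM13A is at 89647106. TIGD2, on the other side of FAM13A, went from 19.9 to 13.4 FPKM, a change of -0.57. The libraries kept strand, and the study's methods name standard Cufflinks settings without giving the strand setting, so that reads of FAM13A and FAM13A-AS1 cannot be told apart with certainty.

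By GENCODE 5′ ends, several members start close to a neighbour on the opposite strand. The 5′ ends of ANKZF1 and ATG9A, a lipid scramblase of autophagy, lie 66 bases apart in GENCODE. ATG9A went from 2.57 to 4.83 FPKM, a change of 0.88, beside 1.82 for ANKZF1. The outermost GENCODE 5′ ends of ANKRD37 and LRP2BP lie 97 bases apart, but their spans in the table lie 17688 bases apart. LRP2BP went from 0.363 to 0.737 FPKM, a change of 0.85, beside 3.85. FAM162A and MIX23, a mitochondrial protein gene, start 930 bases apart, and MIX23 was lower in hypoxia, with 142 and 114 FPKM and a change of -0.32. TIGD2, also lower (-0.57 beside 1.86), starts 135 bases from the outermost GENCODE 5′ end of FAM13A, although the spans of the pair in the table lie 55622 bases apart.

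The remaining neighbours were CCDC110 (1.13) and UFSP2 (0.28) beside ANKRD37, BTG2 (0.98) and TMEM183A (-0.16) beside PPFIA4, GLB1L (-0.45) and STK16 (-0.01) beside ANKZF1, and WDR5B (-0.00) beside FAM162A. SAMD4A lay between CGRRF1 (-0.40) and GCH1 (0.02), CPEB4 between BOD1 (-0.20) and MSX2 (-0.08), and the other neighbours of AK4 and RAB20 were DNAJC6 (-0.52) and NAXD (-0.29), all on the log2 scale. CCDC110 was low in both conditions, at 0.508 and 1.23 FPKM.

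**Figure D5:**
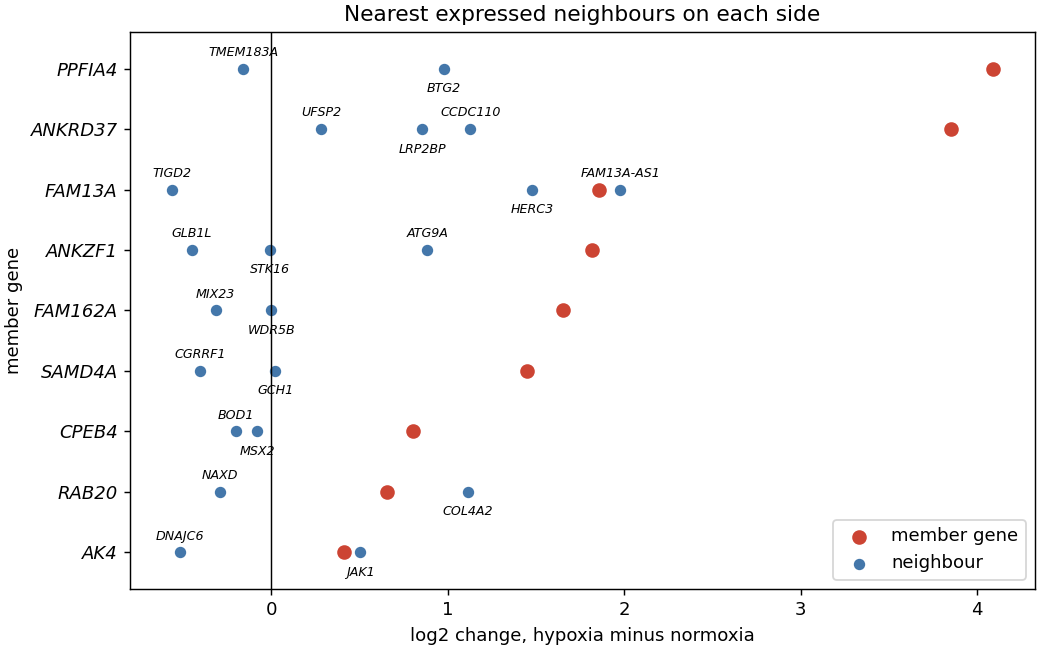
Log2 change, hypoxia minus normoxia, of each of the 9 genes (red) and of its nearest expressed neighbours (blue, labelled), 1 row per gene. Blue points lie to the right of the red point only for FAM13A-AS1, COL4A2 and JAK1.

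The HIF core was counted in all promoter windows that RefSeq gave for the 9 genes. Whether earlier knowledge of such sites had a part in naming these genes is not known, so the counts are a description. Windows were found for 7 genes, with 13 windows in all. ANKZF1 and RAB20 had none. ACGTG or GCGTG on either strand was found in 10 of 13 windows, against 48.4% of 35116 windows of the same length. ACGTG alone was found in 6 of 13, against 21.4% of all windows. Counted by gene, 7 of 7 held either form in at least 1 window, against 52.4% of 27305 genes, and 5 of 7 held ACGTG, against 24.9%. PPFIA4 counts through its annotated 5′ end, 24692 bases from the start of the measured transcript, which held neither form. FAM13A counts through its upstream window alone. Counting at least 1 window favours genes with more windows, and the members had 13 for 7 genes, beside 35116 for 27305. Windows of 1 gene can overlap or share a promoter, and the members' windows were richer in G and C, with a median of 68.0% against 58.7%, whose part in these counts was not tested.

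AK4, the gene with the smallest change, held ACGTG in 2 of its 4 windows, at -93 in the first and at 8 and 17 bases past the start in the second. CPEB4 held GCGTG alone, at -128. SAMD4A held GCGTG in 1 of 3 windows, at -91, and neither form in the other 2.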

How the data were processed

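Poly(A)-selected stranded libraries of SQ20B cells (4 normoxia, 4 hypoxia, grouped by source name) were aligned by the authors to RefSeq hg19 with STAR 2.3.0.1 and quantified with Cufflinks 2.1.1 at its standard settings, per the study's methods. The deposited values used here are the authors' FPKM, 1 per transcript and condition. The deposited log2 fold changes, test statistics, p-values and q-values are the authors' own comparison and were not used. Depth per sample was not given by the file.

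Transcripts were paired with RefSeq symbols (GRCh38.p14 table): 24293 of 24812 by accession, 1 (PPFIA4) by hg19 position and 518 not paired. FPKM was summed per gene. Log2 changes used 0.1 FPKM added, and lists and shares used genes with a mean of at least 0.5 FPKM. No test was run, as each condition has 1 value. Code was tested on simulated data (Python 3.11.15, pandas 2.3.3, numpy 2.4.6).

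The genes and lists were chosen with earlier results of these data known. Named genes were the 9 with all transcripts, expressed members of their families (1 is not reported here), up to 4 genes past 2-fold in other lists (or the highest and lowest), the highest, median and lowest HIF target, and nearest expressed neighbours; UFSP2, GLB1L and FAM13A-AS1 overlap. Beside these, CNOT7, ABCE1, ASCC2, RAB4B and RAB5B were named after their values were seen. Alternatives were the amount added, the filter, scaling, the fold, the leading transcript in place of the sum, and ACGTG alone.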

Additional observations from a re-analysis of the deposited data

How the results depend on the processing

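No paired analysis was possible because each condition is given as 1 pooled value, and leaving out a replicate was not possible for the same reason. With no spread between replicates, a value is said to have moved here when its fold, or a count, changed by more than 1.5 times. The 9 genes were above 0 in all 72 values from 8 alternatives. They were chosen with their direction known, the amount added cannot turn a sign, and the filters left each gene's value unchanged. This count was therefore largely fixed in advance and is a description.

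Scaling to equal FPKM sums raised the median of all genes by 0.22 on the log2 scale. The median of the 9 genes stood 1.72 above that of all genes as deposited and 1.73 above it when scaled. Such scaling shifts all genes almost alike, so that this difference could hardly change. With quantile normalization it was 1.85. Of genes past 2-fold, 55.1% were higher as deposited (389 against 317), 82.0% with equal sums (690 against 151) and 66.8% with median centring (485 against 241). Genes at least 2-fold higher numbered 202 with 1 FPKM added, 1205 at 1.5-fold and 133 at 3-fold. Transcripts numbered 673 as reported, 284 with 1 FPKM added, 1119 without a filter, 1159 with equal sums, 1917 at 1.5-fold and 222 at 3-fold. Neighbours numbered 4 as reported, 1 with 1 FPKM added or at 3-fold, 2 at a mean of at least 1 FPKM, and 7 with equal sums or at 1.5-fold.

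List counts in either direction moved as follows. Mitochondrial carriers went from 2 to 1 with 1 FPKM added, median centring or quantile normalization, and to 0 with equal sums or at 3-fold. Cytoplasmic polyadenylation went from 1 to 0 with equal sums, quantile normalization or at 3-fold. Smaug and deadenylases went from 2 to 4 with equal sums, 5 at 1.5-fold and 0 at 3-fold. CPEB proteins went from 0 to 1 with equal sums or at 1.5-fold, and liprin partners from 0 to 1 with equal sums and 3 at 1.5-fold. At 1.5-fold, ribosome quality control had 2, endosomal Rabs 2 and ankyrin-repeat genes 8. At 3-fold, adenylate kinases had 0 and ankyrin-repeat genes 2.

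List medians changed sign for adenylate kinases without a filter (0.087), endosomal Rabs at a mean of at least 1 FPKM (-0.0195), cytoplasmic polyadenylation with equal sums (0.0258), ankyrin-repeat genes with equal sums (0.16) or median centring (0.0422), and mitochondrial carriers with quantile normalization (0.12). The cause of these moves was not tested beyond the setting itself. Alternatives for neighbours and leading transcripts were added after seeing the data, and no leading transcript's part moved.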
